A study of Saccharomyces cerevisiae with 12 samples.

Results

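The genes described here encode the proteins of the large (60S) subunit of the cytosolic ribosome of the budding yeast *Saccharomyces cerevisiae*. They were chosen by name alone, as every row of the expression table whose ORF has a standard name of RPL followed by a digit, or is one of the stalk genes *RPP0*, *RPP1A*, *RPP1B*, *RPP2A* and *RPP2B*. The rule found 81 of 5872 rows. Of these, 78 had a value on every array, out of 5769 genes with values in all. *RPL35A*, *RPL41A* and *RPL41B* had a row that was empty on all arrays, so *RPL35B* was measured without its partner and the *RPL41* pair was not measured at all. The 78 genes comprised 33 complete pairs of paralogs (an A and a B copy, with the *RPP1* and *RPP2* pairs among them), *RPL35B*, *RPP0* and 10 single-copy RPL genes.

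Gene expression was profiled on 12 one-color NimbleGen arrays. WT was the haploid *MATa* strain BY4741, whose auxotrophic alleles of *HIS3*, *LEU2*, *MET15* and *URA3* all groups share, and *tup1Δ* was a single strain of the deletion collection in the same background, in which *TUP1* is removed. Cells in mid-log phase in YPD received either 100 nM rapamycin or its solvent DMSO alone at 0.1%, and were collected after 30 min at 30°C. There were 4 WT arrays in DMSO, 4 WT arrays in rapamycin, 2 *tup1Δ* arrays in DMSO and 2 *tup1Δ* arrays in rapamycin, and each WT culture was split between the treatments, so that WT arrays of one replicate number share a culture.

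Large-subunit proteins assemble with rRNA into the particle that forms peptide bonds, and growing yeast devotes much of its transcription by RNA polymerase II to them and to their small-subunit counterparts. Their genes are driven by promoters that bind Rap1, Fhl1 and Ifh1, under the control of the TORC1 kinase through Sch9, Sfp1 and protein kinase A. Rapamycin, bound to the prolyl isomerase Fpr1, inhibits TORC1. Tup1 is part of the Tup1-Cyc8 corepressor, which many DNA-binding repressors recruit. Most large-subunit proteins of *S. cerevisiae* are encoded by duplicate genes whose products are nearly identical.

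All values are log2 array signals normalized by Robust Multi-array Average (RMA), which gives the probe signals of every array the same distribution. They therefore describe each transcript relative to the rest of the RNA, and a change in the total mRNA of a cell would not appear in them. Array medians ranged from 11.48 to 11.52, and single genes from 7.85 to 15.52. *TUP1* had log2 values of 13.66 to 14.04 on the 8 WT arrays and 7.95 to 8.23 on the 4 *tup1Δ* arrays, as the labels require. Among mating-type markers of **a** cells, *STE2* and *BAR1* had WT DMSO means of 14.13 and 13.36. Those of *MFA2*, *STE6* and *MFA1* were 12.81, 11.97 and 11.40. Among markers of alpha cells, *MF(ALPHA)1*, *STE3* and *MF(ALPHA)2* had 7.99, 8.15 and 8.88. The alpha-specific gene *SAG1*, however, had a WT DMSO mean of 12.10, above those of *STE6* and *MFA1*. *LEU2*, *MET17* (another name of *MET15*) and *URA3* lay between 7.85 and 8.06 on every array, whereas *HIS3* lay between 12.88 and 13.66. The position of the *HIS3* probes relative to the deleted part of that gene is not given in the sources used here, so its signal checks nothing.

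Rapamycin lowered the large-subunit genes almost without exception in WT. Of the 78 genes, 77 fell at an adjusted p under 0.05 in the limma fit over all genes, and 28.4% of all genes did so. One gene, *RPL15B*, rose, beside 37.8% of all genes. The median log2 fold change of the 78 genes was -1.07, a median fold of 2.11, and the middle 50% of them lay between -1.40 and -0.82. Over all 5769 genes the median was 0.06. A fall by at least 1 on the log2 scale was found for 44 of the 78 genes, compared with 7.80% of all genes. A fall by 2 or more was found for 3 of the 78 genes, beside 138 of all 5769 genes. For 77 genes every rapamycin array of WT lay below every DMSO array of WT, as it did for 26.1% of all genes. The 53 measured small-subunit (RPS) genes all fell too, with a median of -0.92, and 23 of them fell by at least 1.

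**Figure D1:**
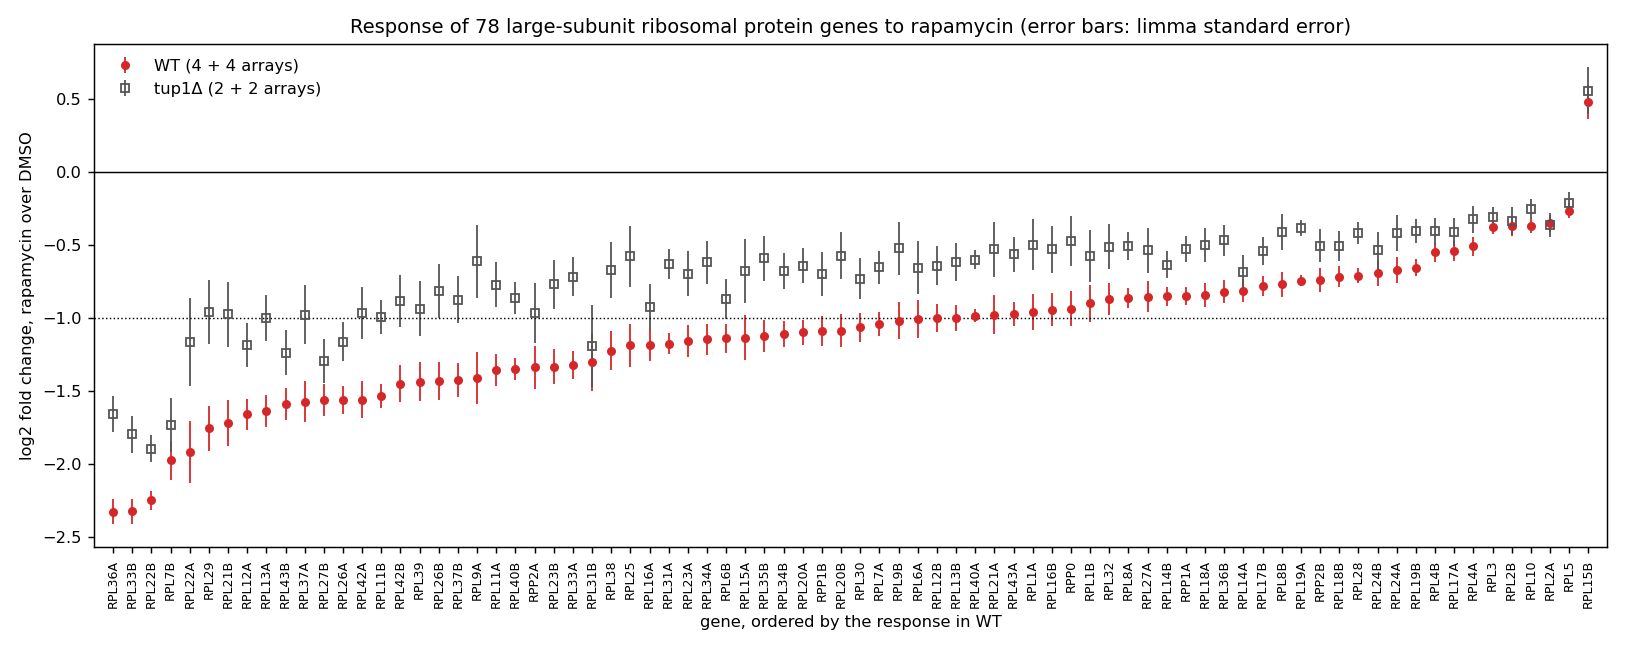
Log2 fold change of rapamycin over DMSO (vertical axis) for each of the 78 genes, ordered by the response in WT, in WT (filled circles, 4 arrays per treatment) and in *tup1Δ* (open squares, 2 arrays per treatment), with limma standard errors as bars and a dotted line at -1. All genes but *RPL15B* lie below 0, from -2.33 in WT upward, and the *tup1Δ* squares lie above the WT circles for 77 of the 78 genes.

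The largest falls were those of *RPL36A*, *RPL33B*, *RPL22B*, *RPL7B* and *RPL22A*. All of them are members of paralog pairs. *RPL36A* (YMR194W, chromosome XIII), which encodes a small protein found in eukaryotic ribosomes, had log2 values of 11.83, 11.79, 11.79 and 11.82 on the WT DMSO arrays and 9.72, 9.58, 9.34 and 9.28 on the WT rapamycin arrays. The groups were more than 2 units apart, and rapamycin arrays 3 and 4 were lower than 1 and 2. Its log2 fold change was -2.33 (standard error, SE, 0.09, limma adjusted p = 1.29e-09), a 5.02-fold fall. *RPL33B* (YOR234C, chromosome XV) had 12.11, 12.12, 12.17 and 12.10 in DMSO and 9.96, 9.95, 9.56 and 9.72 in rapamycin. It too showed the lowest values on rapamycin arrays 3 and 4, and its log2 fold change was -2.33 (SE 0.09, limma adjusted p = 1.41e-09).

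*RPL22B* (YFL034C-A, chromosome VI), which encodes a eukaryotic protein that yeast can live without, had 11.22, 11.03, 10.99 and 11.12 in DMSO and 8.91, 8.68, 8.88 and 8.90 in rapamycin, a log2 fold change of -2.25 (SE 0.07, limma adjusted p = 1.9e-10). Its rapamycin values were the closest of any of the 78 genes to the low end of the arrays, so the size of the fall may be a lower limit. *RPL7B* (YPL198W, chromosome XVI), for a protein that joins the particle early in assembly, had 12.03, 11.86, 11.70 and 11.65 in DMSO and 10.01, 9.85, 9.87 and 9.61 in rapamycin, with a log2 fold change of -1.97 (SE 0.13, limma adjusted p = 1.66e-07). Its spread was alike in both groups. *RPL22A* (YLR061W, chromosome XII) was tight in DMSO, at 13.49, 13.49, 13.45 and 13.47, and fell into a pair of levels in rapamycin, at 11.92 and 12.12 on arrays 1 and 2 and 11.05 and 11.11 on arrays 3 and 4. Its standard deviation over the rapamycin arrays was 0.55, the largest of the genes named with array values, and its log2 fold change was -1.92 (SE 0.21, limma adjusted p = 1.1e-05).

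At the other end, *RPL2B*, *RPL10*, *RPL2A* and *RPL5* fell least and *RPL15B* rose. *RPL5* (YPL131W, chromosome XVI) encodes the protein that carries 5S rRNA into the subunit together with Rpl11. It had log2 values of 14.72, 14.74, 14.72 and 14.80 in DMSO and 14.60, 14.49, 14.41 and 14.44 in rapamycin, a log2 fold change of -0.26 (SE 0.05, limma adjusted p = 0.000835). The fall was small but the arrays of the 2 treatments did not overlap. *RPL10* (YLR075W, chromosome XII), for a protein that joins the particle late, in the cytoplasm, had 14.09, 14.14, 14.18 and 14.11 in DMSO and 13.82, 13.85, 13.70 and 13.67 in rapamycin, with a log2 fold change of -0.37 (SE 0.05, limma adjusted p = 5.44e-05).

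Rpl2 is among the most conserved ribosomal proteins and lies near the catalytic center. *RPL2A* (YFR031C-A, chromosome VI) had 14.40, 14.45, 14.52 and 14.58 in DMSO and 14.12, 14.23, 14.09 and 14.10 in rapamycin. *RPL2B* (YIL018W, chromosome IX) had 14.40, 14.50, 14.70 and 14.62 in DMSO and 14.20, 14.26, 14.17 and 14.09 in rapamycin. The copies moved together, with log2 fold changes of -0.35 (SE 0.06, limma adjusted p = 0.000221) and -0.37 (SE 0.07, adjusted p = 0.000491). *RPL3*, whose product also lies at the catalytic center, followed at -0.37, and *RPL4A* and *RPL4B*, whose product lines the exit tunnel, at -0.51 and -0.55.

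*RPL15B* (YMR121C, chromosome XIII) was the exception. It encodes the copy known as the minor one of a protein that binds the rRNA early in assembly. Its log2 values were 10.73, 10.68, 10.94 and 11.12 in WT DMSO and 11.17, 11.20, 11.53 and 11.48 in WT rapamycin. All rapamycin arrays lay above all DMSO arrays, although DMSO array 4 and rapamycin array 1 were close. The log2 fold change was 0.48 (SE 0.11, limma adjusted p = 0.00319), and it was 0.49 over cultures 1 and 2 and 0.48 over cultures 3 and 4.

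**Figure D2:**
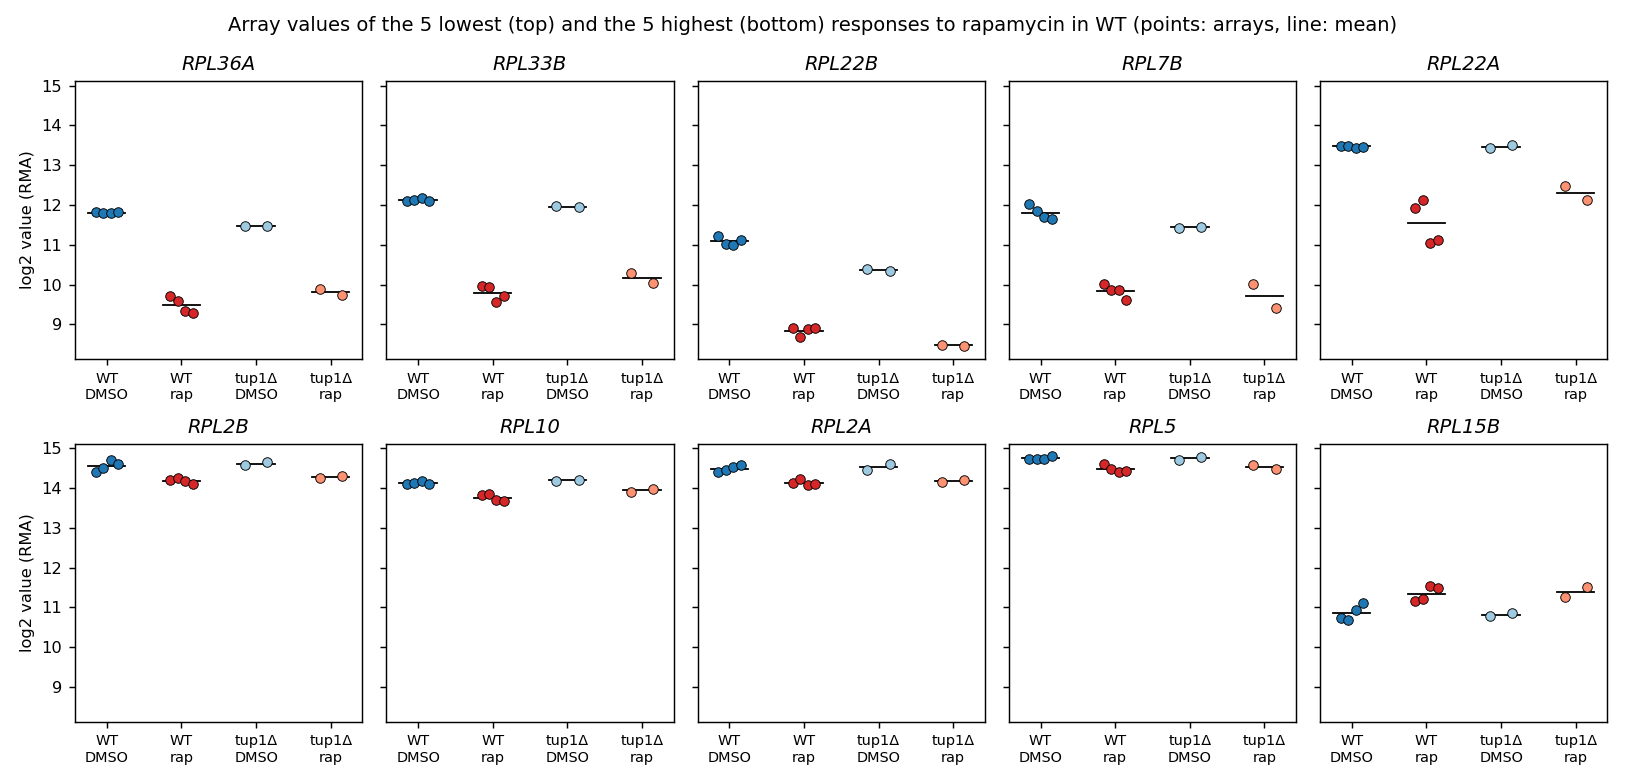
Log2 array values (vertical axis, RMA) of the 5 genes with the lowest responses (top row) and the 5 with the highest (bottom row), with one point per array, a line at the group mean, and the groups WT DMSO, WT rapamycin, *tup1Δ* DMSO and *tup1Δ* rapamycin from left to right. *RPL36A* drops from about 11.8 to between 9.28 and 9.72 in WT, *RPL5* moves by 0.26, and the rapamycin points of *RPL15B* all lie above the DMSO points.

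The stalk, which recruits the GTPases of elongation to the ribosome, is built on Rpp0 and pairs of the acidic proteins Rpp1 and Rpp2. All 5 stalk genes fell in WT, and 2 of them by at least 1. *RPP0*, the single-copy anchor, had 14.56, 14.51, 14.34 and 14.34 in DMSO and 13.78, 13.71, 13.31 and 13.20 in rapamycin, a log2 fold change of -0.94 (SE 0.12, limma adjusted p = 3.54e-05). *RPP1A* went from 13.88, 13.87, 13.97 and 13.91 to 13.16, 13.16, 12.92 and 12.99 (log2 fold change -0.85). *RPP1B* went from 13.83, 13.72, 13.85 and 13.76 to 12.87, 12.93, 12.56 and 12.44 (log2 fold change -1.09). For these 3 genes the groups were well apart, and rapamycin arrays 3 and 4 were the lowest. *RPP2B* went from 14.33, 14.22, 14.19 and 14.12 to 13.67, 13.57, 13.37 and 13.29 (log2 fold change -0.74). *RPP2A*, which fell most, went from 13.15, 13.36, 13.52 and 13.46 to 11.88, 12.54, 11.87 and 11.86 (log2 fold change -1.34, SE 0.15, limma adjusted p = 9.38e-06). Its rapamycin array 2 stood apart from the other 3.

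The 10 single-copy RPL genes all fell, with a median of -0.96 against -1.10 for the 63 RPL genes that carry an A or B suffix. Of the 10, 5 fell by at least 1. *RPL29*, for a small protein that is not essential, fell most at -1.76 (SE 0.16), followed by *RPL39*, for another small protein at the exit tunnel, at -1.44, *RPL38* at -1.22, *RPL25*, whose product lies where the signal recognition particle docks, at -1.19 and *RPL30*, whose product represses the splicing of its own transcript, at -1.06. *RPL32* (-0.87), *RPL28* (-0.71), in which mutations give resistance to cycloheximide, *RPL3* (-0.37), *RPL10* (-0.37) and *RPL5* (-0.26) fell by less. The single-copy genes thus spanned most of the range of the other members.

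The array signal in DMSO and the size of the response were related across the genes. The 78 genes were bright, with a median percentile of 93.7 among all genes in WT DMSO, and 53 of them lay in the top 10%. Genes with the higher DMSO signal fell less. Across the 78 genes Pearson's r of the WT DMSO signal with the WT log2 fold change was 0.54 and Spearman's rho was 0.74, and without *RPL15B* they were 0.85 and 0.81. Over all 5769 genes r was -0.24, and over the 53 RPS genes it was 0.75. These are descriptions across genes, which are not independent replicates, and the signal in DMSO enters both quantities. Signals of different probes are not levels that can be ranked between genes, and whether the brightest probes were near saturation was not tested.

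**Figure D3:**
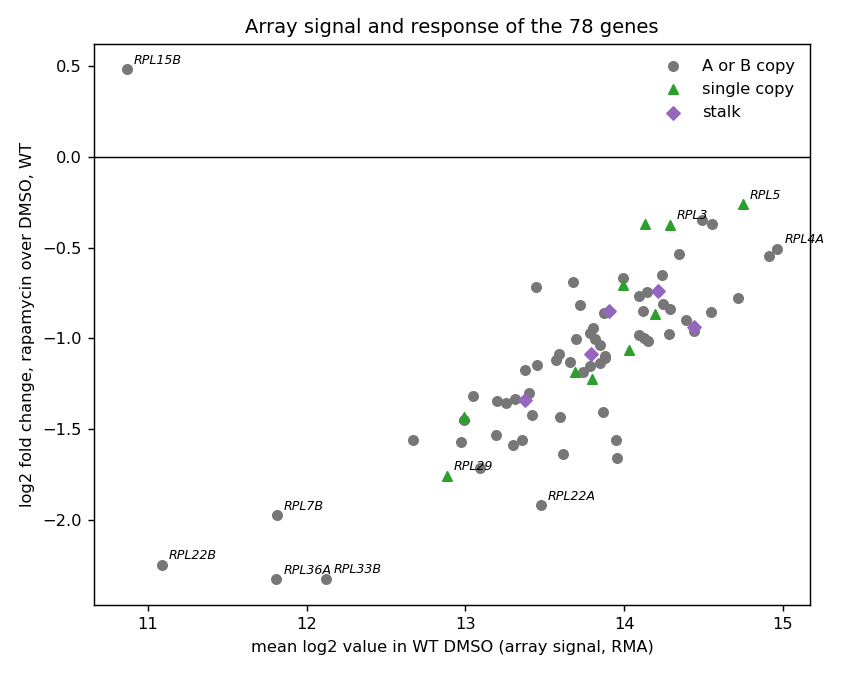
WT log2 fold change of rapamycin over DMSO (vertical axis) against the mean log2 array signal in WT DMSO (horizontal axis) for the 78 genes, with circles for A or B copies, triangles for single-copy RPL genes and diamonds for stalk genes. The points rise from *RPL22B*, *RPL36A* and *RPL33B* at the lower left to *RPL5* and *RPL4A* at the upper right, and *RPL15B* lies alone at the upper left.

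The WT cultures fell into pairs in the size of the response. The median log2 fold change of the 78 genes was -0.90 in culture 1 and -0.83 in culture 2, but -1.28 in culture 3 and -1.24 in culture 4. In each of the 4 cultures 77 genes were below 0. The genes at -1 or less numbered 30 and 27 in cultures 1 and 2, and 54 and 55 in cultures 3 and 4. The counts per culture were not made for all genes, so they have no background here. In 73 of the 78 genes both of cultures 3 and 4 responded more negatively than both of cultures 1 and 2, as they did in 29.1% of all genes. The RPS genes showed the same split, with medians of -0.74, -0.79, -1.08 and -1.11, while the median of all genes was 0.04 to 0.06 in every culture. With only WT replicates 1 and 2 in the fit, 27 genes instead of 44 fell by at least 1, beside 6.95% of all genes. The order of the genes was alike in both pairs of cultures (r = 0.94 across the 78 genes). The DMSO arrays lay closer together, with a median standard deviation of 0.07 per gene over the 4 WT DMSO arrays and 0.22 over the 4 WT rapamycin arrays. The labels name no batch that would separate cultures 1 and 2 from 3 and 4.

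**Figure D4:**
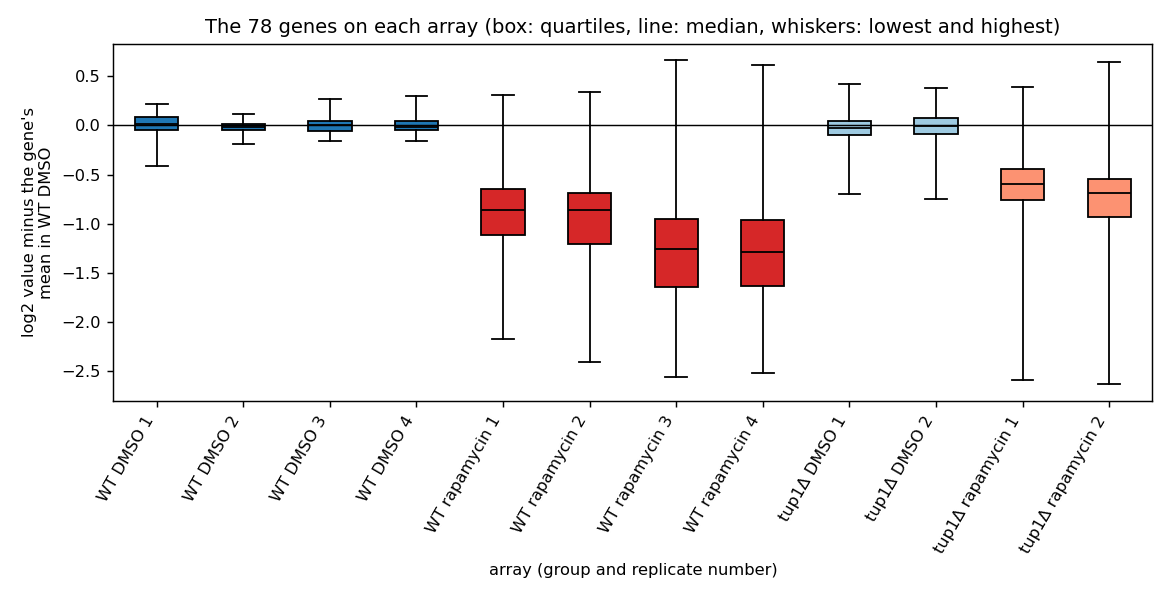
Log2 value minus the gene's mean in WT DMSO (vertical axis) for the 78 genes on each of the 12 arrays, as boxes of the quartiles with the median as a line and whiskers to the lowest and highest gene. The DMSO boxes center on 0 in both strains, the WT rapamycin medians are -0.87, -0.86, -1.26 and -1.29, and the *tup1Δ* rapamycin medians are -0.59 and -0.69.

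Paralogs were compared by the difference between their responses, since the signals of different probes cannot be set against each other. Copies with near-identical coding sequence can share probes or cross-hybridize, so the separate values of such copies are uncertain and a small difference between them shows little. Over the 33 pairs the median absolute difference in the WT response was 0.18 on the log2 scale, and over the 2970 other combinations of 2 members it was 0.43. The difference was below 0.1 in 9 pairs, between 0.1 and 0.5 in 14 and at least 0.5 in 10. The A copy fell more (or rose less) in 16 pairs and the B copy in 17. In 23 pairs the difference had the same sign in all 4 WT cultures, and in 22 of these also in both *tup1Δ* replicates. In 15 pairs the array differences (A minus B) did not overlap between rapamycin and DMSO. This gives p = 0.0286 in the two-sided exact permutation test, the smallest value that 4 against 4 arrays allow. The test did not pair the arrays of one culture, so its p takes no account of the shared cultures. Nor is it adjusted over the 33 pairs. The counts of same sign and of no overlap were not made for the other combinations of 2 members, so they have no background here.

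The 4 pairs with the largest differences were picked by those differences, so their permutation p-values are no separate support. Of these the *RPL15* pair differed most. *RPL15A* had 13.82, 13.65, 13.54 and 13.62 in WT DMSO and 12.74, 12.95, 12.22 and 12.19 in WT rapamycin, a log2 fold change of -1.13, while *RPL15B* rose. The difference of A minus B was -1.52, -1.23, -1.91 and -1.79 in the 4 cultures (mean -1.61 ± 0.30, SD, n = 4, exact permutation p = 0.0286). It was largest in cultures 3 and 4. In the *RPL36* pair, *RPL36B* had 13.73, 13.70, 13.73 and 13.74 in DMSO and 13.10, 13.01, 12.78 and 12.73 in rapamycin, a log2 fold change of -0.82 beside the -2.33 of *RPL36A*. The difference was nearly the same in every culture, from -1.53 to -1.48 (mean -1.51 ± 0.02, SD, n = 4, exact permutation p = 0.0286).

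In the *RPL33* pair it was the B copy that fell more. *RPL33A* had 13.09, 13.03, 13.04 and 13.04 in DMSO and 12.02, 11.77, 11.62 and 11.50 in rapamycin, a log2 fold change of -1.32, and the difference of A minus B was 1.01 ± 0.16 (SD, n = 4, exact permutation p = 0.0286). The *RPL7* pair was alike, with *RPL7A* at 13.80, 13.84, 13.94 and 13.82 in DMSO and 13.0, 12.93, 12.67 and 12.63 in rapamycin, a log2 fold change of -1.04, and a difference of 0.94 ± 0.29 (SD, n = 4, exact permutation p = 0.0286). The arrays of these 4 pairs thus separated completely, in either direction.

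The B copy also fell more in the *RPL21* pair (difference 0.74), the *RPL27* pair (0.71) and the *RPL43* pair (0.62), and the A copy in the *RPL12* pair (-0.66) and the *RPL13* pair (-0.64). Rpl12 forms the base of the stalk. The array differences of these 5 pairs did not overlap between the treatments. For the *RPP2* pair the difference was -0.60, with -0.61, -0.18, -0.84 and -0.77 in the 4 cultures, and the arrays overlapped (exact permutation p = 0.0571). The *RPL22* pair changed sign between the pairs of cultures. *RPL22B* fell more in cultures 1 and 2, where A minus B was 0.74 and 0.98, and *RPL22A* had the more negative response in cultures 3 and 4, at -0.28 and -0.14 (exact permutation p = 0.429 over all 4). The copies of *RPL20*, *RPL2* and *RPL24* differed least, by 0.02 or less. For these the mean difference was within the spread over the cultures, which was 0.12, 0.07 and 0.05 (SD, n = 4).

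**Figure D5:**
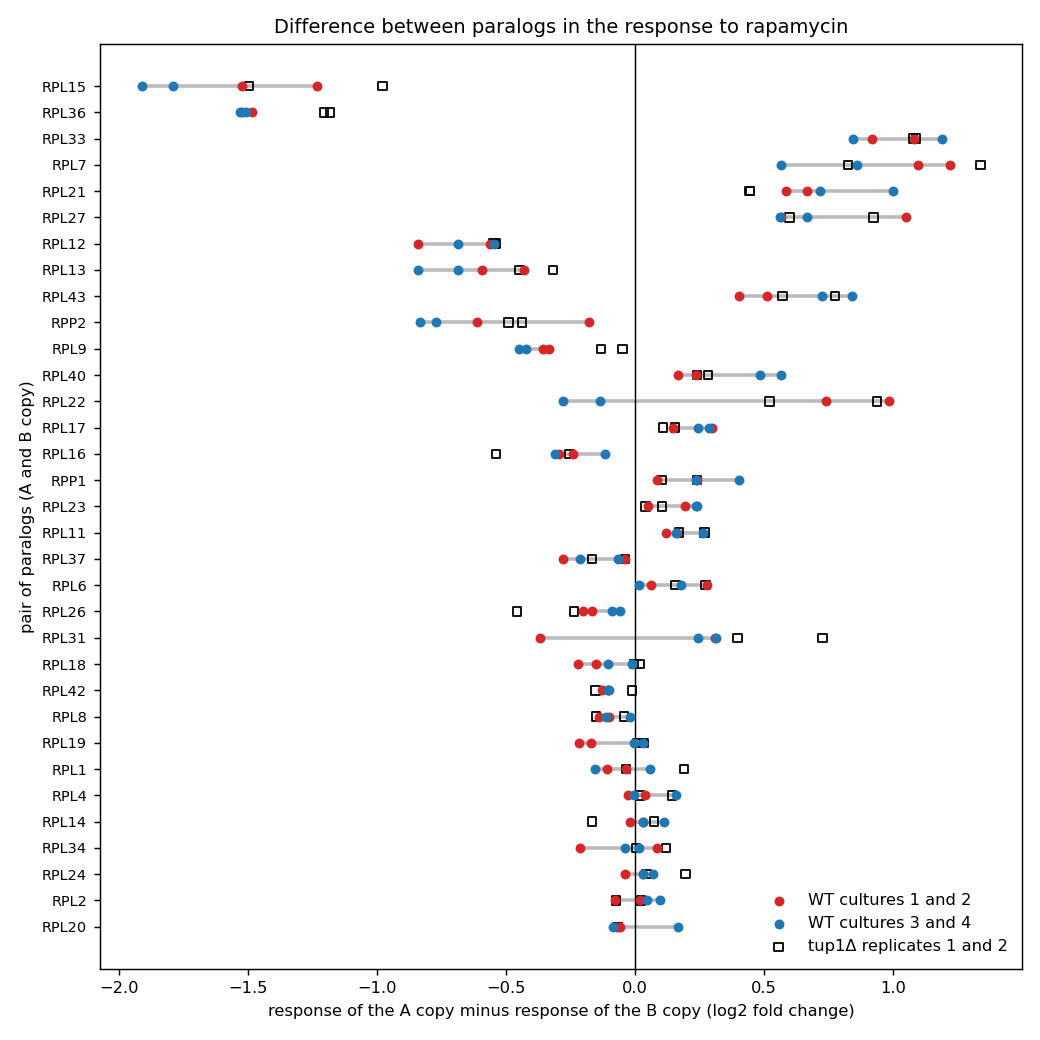
Response of the A copy minus response of the B copy (horizontal axis, log2 fold change) for the 33 pairs, with one point per WT culture (red for 1 and 2, blue for 3 and 4), a gray line over their range and open squares for the *tup1Δ* replicates. The *RPL15* and *RPL36* pairs lie near -1.5 in WT, the *RPL33* and *RPL7* pairs near 1, and the points of the *RPL22* pair fall on both sides of 0.

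Without rapamycin, the deletion of *TUP1* was accompanied by little difference in these genes. Between *tup1Δ* and WT in DMSO, 5 of the 78 genes were lower at an adjusted p under 0.05 (27.3% of all genes) and 0 were higher (15.3% of all genes). The limma fit put 0 of them past the fold threshold of 1 on the log2 scale, compared with 4.58% of all genes. At an unadjusted p under 0.05, 6 genes were lower (32.2% of all genes) and 1, *RPP2A*, was higher (17.6% of all genes). After a shift of each array to the median gene, 1 of the 78 genes was lower (18.1% of all genes) and 1, *RPP2B*, was higher (20.3% of all genes). The median of the 78 genes was -0.01, beside -0.08 over all genes. Arrays of the strains did not overlap for 24 of the 78 genes, and they did not overlap for 63.1% of all genes. The share of these genes that differed was therefore below the background on each of these counts.

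The 5 genes that were lower were *RPL22B*, *RPL36A*, *RPL8A* (-0.25), *RPL19A* (-0.20) and *RPL40A* (-0.20). *RPL22B* had 10.39 and 10.34 in *tup1Δ* DMSO, below all 4 WT DMSO arrays, with a log2 fold change of -0.72 (SE 0.09, limma adjusted p = 3.67e-05). *RPL36A* had 11.46 and 11.47, also below all WT arrays, with -0.34 (SE 0.11, limma adjusted p = 0.0223). *RPL7B*, at 11.43 and 11.45, had -0.37 and did not pass (limma adjusted p = 0.0884). The genes with the highest values were *RPP2A*, *RPL31B* and *RPP2B*, none of which passed with all arrays in the fit. *RPP2A* had 13.80 and 13.76 in *tup1Δ* DMSO, above all WT DMSO arrays (log2 fold change 0.40, limma adjusted p = 0.0929), and *RPP2B* had 14.41 and 14.45, also above all of them (0.22, adjusted p = 0.103). *RPL31B* had 13.68 and 13.63 beside 12.98, 13.25, 13.67 and 13.70 in WT (0.26, limma adjusted p = 0.429). Its *tup1Δ* values overlapped those of WT replicates 3 and 4, and its log2 fold change was -0.03 with only WT replicates 3 and 4 in the fit. *RPP2A* and *RPP2B* passed when only the groups compared entered the fit (limma adjusted p = 0.0233 and 0.0403) and with only WT replicates 3 and 4, *RPP2A* also without WT rapamycin replicate 2 (limma adjusted p = 0.00806), and *RPP2B* also after the shift to the median gene (limma adjusted p = 0.0406). The call of *RPL36A* was lost after that shift (limma adjusted p = 0.0775) and when either *tup1Δ* DMSO array was left out, and without *tup1Δ* DMSO replicate 1 the number of genes that were lower dropped from 5 to 1, and without replicate 2 to 2.

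In *tup1Δ*, rapamycin lowered 76 of the 78 genes at an adjusted p under 0.05 (23.5% of all genes), raised *RPL15B* (29.6% of all genes were higher) and left *RPL9A* short of the threshold (log2 fold change -0.61, limma adjusted p = 0.062). Fewer genes passed when any *tup1Δ* array was left out, which leaves 1 array in its group, so the count of 76 is less firm than that in WT. The median log2 fold change was -0.63, a median fold of 1.55, and 10 genes fell by at least 1 (6.52% of all genes). Without *tup1Δ* rapamycin replicate 1 the number was 18 (6.76%). For 77 genes the rapamycin arrays lay below the DMSO arrays, as for 38.3% of all genes in this smaller comparison of 2 against 2 arrays. Medians of the replicates were -0.58 and -0.71. *RPL22B* fell most, from 10.39 and 10.34 to 8.49 and 8.45 (-1.89), then *RPL33B*, from 11.97 and 11.95 to 10.28 and 10.04 (-1.80), *RPL7B*, from 11.43 and 11.45 to 10.01 and 9.40 (-1.73), and *RPL36A*, from 11.46 and 11.47 to 9.88 and 9.73 (-1.66). These are 4 of the 5 genes that fell most in WT.

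*RPL15B* went from 10.79 and 10.85 to 11.25 and 11.52 in *tup1Δ*, a log2 fold change of 0.56 (SE 0.16, limma adjusted p = 0.0131). The call was lost without *tup1Δ* DMSO replicate 1 (adjusted p = 0.0681) or *tup1Δ* rapamycin replicate 2 (limma adjusted p = 0.112). The order of the genes was alike in the strains, whose arrays for this comparison are separate, with r = 0.94 across the 78 genes and 0.92 across all genes. The difference between paralogs was also alike, with r = 0.95 across the 33 pairs and 0.88 without the 4 largest. In *tup1Δ* the difference of A minus B was -1.24 for *RPL15*, -1.19 for *RPL36*, 1.08 for *RPL33* and 1.08 for *RPL7*.

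In rapamycin the genes lay higher in *tup1Δ* than in WT. At an adjusted p under 0.05, 52 of the 78 genes were higher (16.2% of all genes) and *RPL22B*, at -0.37, was lower (27.5% of all genes were lower). The fold threshold was passed by 0 of the 78 genes (5.39% of all genes). The median log2 difference was 0.39, beside -0.09 over all genes, and both *tup1Δ* arrays lay above all 4 WT arrays for 55 genes, compared with 21.4% of all genes. All 5 stalk genes were among those higher. The highest values were those of *RPL29* (0.93, SE 0.20), *RPP2A* (0.78) and *RPL33A* (0.77). The count depended on the arrays of both strains. With only WT replicates 1 and 2 in the fit it was 36 (17.8% of all genes), and with only replicates 3 and 4 it was 72 (24.8%). Without WT rapamycin replicate 3 or 4 it was 36 (14.7% and 14.5%), and without replicate 1 or 2 it was 59 (16.7% and 16.5%). It was 3 without *tup1Δ* rapamycin replicate 1 (10.4% of all genes) and 24 without *tup1Δ* rapamycin replicate 2 (12.3%), and it was 18 when only the groups compared entered the fit (13.9%).

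The response itself was smaller in *tup1Δ* for every one of the 78 genes except *RPL2A* and *RPL15B*, but few single genes passed the test of the difference. The median difference between the responses (*tup1Δ* minus WT) was 0.38, where it was 0.00 over all genes and 0.30 over the RPS genes. In the 77 genes that fell in WT, the *tup1Δ* log2 fold change was a median of 0.62 of the WT one, from 0.43 for *RPL9A* to 1.03 for *RPL2A*. Both *tup1Δ* replicates responded less negatively than all 4 WT cultures in 54 of the 78 genes, compared with 20.6% of all genes. Yet 4 genes had a difference at an adjusted p under 0.05 (3.48% of all genes), 0 had one in the other direction (2.29%), and 0 passed the fold threshold (1.16%). At an unadjusted p under 0.05, 42 of the 78 genes had a positive difference (10.7% of all genes) and 0 a negative one (8.96% of all genes). The 4 of 78 are a share close to that of all genes. The replicate block pairs arrays by replicate number, in *tup1Δ* as in WT. With it, 15 of the 78 genes had a positive difference at an adjusted p under 0.05, beside 5.72% of all genes. The count of 54 genes above rests on the same pairing.

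The 4 genes were *RPL36A* (0.67, SE 0.15, limma adjusted p = 0.0251), *RPL31A* (0.55, SE 0.13, adjusted p = 0.0293), *RPL40A* (0.39, SE 0.08, adjusted p = 0.014) and *RPL19A* (0.36, SE 0.07, adjusted p = 0.0078). *RPL40A* encodes its protein fused to ubiquitin, and Rpl19 forms a bridge between the subunits. *RPL40A* and *RPL19A* were among the genes whose WT response was tightest over the cultures. *RPL19A* had 14.15, 14.13, 14.16 and 14.15 in WT DMSO and 13.46, 13.39, 13.40 and 13.36 in WT rapamycin, and 13.93 and 13.96 in *tup1Δ* DMSO and 13.59 and 13.53 in *tup1Δ* rapamycin. Its difference thus came from lower values in DMSO and higher ones in rapamycin, as it did for *RPL36A* and *RPL40A*. *RPL31A* had the same directions, but its difference between the strains in DMSO did not pass (-0.12, limma adjusted p = 0.295). Each of the 4 calls was lost when *tup1Δ* DMSO replicate 1 was left out. The number of genes was then 0, and it was 2 without *tup1Δ* DMSO replicate 2, 1 without *tup1Δ* rapamycin replicate 1 and 2 without *tup1Δ* rapamycin replicate 2. It rose to 19 without WT rapamycin replicate 1 (4.32% of all genes) and to 10 without WT rapamycin replicate 2 (3.64%).

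The largest differences between the responses were those of *RPL29*, *RPL9A* and *RPL22A*. None passed with all arrays in the fit and no replicate block. With the block, *RPL29* (limma adjusted p = 0.0274) and *RPL9A* (limma adjusted p = 0.0243) did. *RPL29* had 13.05, 12.87, 12.80 and 12.81 in WT DMSO, 11.60, 11.26, 10.82 and 10.82 in WT rapamycin, 13.03 and 12.99 in *tup1Δ* DMSO and 12.16 and 11.95 in *tup1Δ* rapamycin (difference 0.80, SE 0.27, limma adjusted p = 0.123). *RPL9A* had 14.08, 13.95, 13.71 and 13.73, then 12.83, 12.83, 12.09 and 12.10 in WT, and 13.77 and 13.73, then 13.24 and 13.04 in *tup1Δ* (0.80, limma adjusted p = 0.178). *RPL22A* had 13.43 and 13.50 in *tup1Δ* DMSO and 12.47 and 12.13 in *tup1Δ* rapamycin (0.75, limma adjusted p = 0.3). In rapamycin the *tup1Δ* arrays of all 3 genes lay above all WT arrays, and the WT arrays were wide apart between replicates 1 and 2 and replicates 3 and 4. All 3 passed with only WT replicates 3 and 4 in the fit, *RPL9A* also with only replicates 1 and 2 (limma adjusted p = 0.0225), and *RPL29* also without WT rapamycin replicate 1 (limma adjusted p = 0.0133).

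At the other end, *RPL2A* (-0.01), *RPL2B* (0.04) and *RPL5* (0.05) responded alike in the strains within their standard errors of 0.10, 0.12 and 0.09. In *tup1Δ*, *RPL2A* had 14.46 and 14.62 in DMSO and 14.16 and 14.20 in rapamycin. *RPL2B* had 14.57 and 14.65, then 14.25 and 14.31, and *RPL5* had 14.70 and 14.79, then 14.58 and 14.49. Their arrays in DMSO and in rapamycin overlapped between the strains.

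The strain difference depended on which WT cultures it was set against. With only WT replicates 1 and 2 in the fit, the median difference between the responses of the 78 genes was 0.22, and with only replicates 3 and 4 it was 0.59. The number of genes that passed was 7 of 78 with replicates 1 and 2 (4.91% of all genes) and 70 of 78 with replicates 3 and 4 (15.1% of all genes). The gap between the pairs of WT cultures, with medians of -0.88 and -1.26, was of the same order as the gap between WT and *tup1Δ*. Whether the *tup1Δ* cultures were grown or processed with either pair of WT cultures is not given in the sources used here, so strain and batch cannot be told apart.

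The expression of their regulators changed less uniformly. In WT, 7 of 16 listed regulators of ribosomal protein genes fell at an adjusted p under 0.05, 3 rose and 6 did not pass, beside the 28.4% and 37.8% of all genes that fell and rose. The gene of the repressor Tod6 fell most, with a WT value of -2.80 for *TOD6* and a *tup1Δ* value of -2.94. *IFH1*, the coactivator at ribosomal protein promoters, had a log2 fold change of -0.97, and *RAP1*, which binds those promoters, had -0.82 (SE 0.16, limma adjusted p = 0.000775). *SCH9* had -0.28 and *SFP1* -0.20, and *YAK1*, a kinase that acts against growth, rose by 0.71. *FHL1* (-0.11, limma adjusted p = 0.512), *TOR1* (0.11) and *FPR1* (0.01) did not pass. For the strain difference in the response, 0 of the 16 passed in limma. At an unadjusted p under 0.05, 2 of the 16 had a positive difference, beside 10.7% of all genes.

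Genes for the dedicated chaperones of large-subunit proteins, which bind a new ribosomal protein and escort it to the particle, all fell in WT (5 of 5). *RRB1*, the chaperone of Rpl3, had a log2 fold change of -2.0 beside -0.37 for *RPL3*. *ACL4*, the chaperone of Rpl4, had -2.08 beside -0.51 and -0.55 for *RPL4A* and *RPL4B*. *SYO1*, which carries Rpl5 with Rpl11, had -3.43 beside -0.26 for *RPL5* and -1.36 and -1.53 for *RPL11A* and *RPL11B*. *BCP1*, for Rpl23, had -1.99 beside -1.16 and -1.33 for *RPL23A* and *RPL23B*. *SQT1*, the chaperone of Rpl10, had -0.61 beside -0.37 for *RPL10*. In each case the chaperone gene had the more negative value, although folds of different probes were not tested against each other.

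The same held for 3 assembly factors that resemble a ribosomal protein. *RLP24*, which holds the place of Rpl24 in the immature particle, had a log2 fold change of -3.21 beside -0.67 and -0.69 for *RPL24A* and *RPL24B*. *MRT4*, which holds that of Rpp0, had -3.15 beside -0.94 for *RPP0*, and *RLP7*, a relative of Rpl7, had -2.59 beside -1.04 and -1.97 for *RPL7A* and *RPL7B*. In *tup1Δ* the 3 had -3.13, -3.0 and -2.44, and their responses differed between the strains by 0.09 to 0.15, with 0 of 3 at an unadjusted p under 0.05 in limma.

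In the gene order of the R64 assembly, members neighbored each other at 2 places. *RPL13A* and *RPP1A* on chromosome IV had WT log2 fold changes of -1.64 and -0.85, and *RPL24A* and *RPL30* on chromosome VII had -0.67 and -1.06. In *tup1Δ* the values were -1.0 and -0.53, and -0.42 and -0.73.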

How the data were processed

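The authors hybridized Cy3-labeled cDNA from total RNA to NimbleGen HX12 arrays, quantified the scans with NimbleScan (its version is not given in the sources used here), applied RMA normalization along with further arrays from the same laboratory, and deposited the resulting log2 values, 1 for each gene on each array. Probe signals and detection flags were not used here. Entries empty on all 12 arrays (103) were left out, and 0 were partly empty. ORF names were matched to symbols in an R64 gene table for 5763 of 5769 genes, and the table served only for names, chromosomes and gene order.

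The deposited log2 values of all genes were fitted with limma 3.58.1 (lmFit and eBayes, R 4.3.3), with 1 mean for each of the 4 groups, 8 residual and 2.8 prior degrees of freedom, and Benjamini-Hochberg adjustment ran over all genes. The threshold was an adjusted p under 0.05, together with a log2 fold change of 1 or more in size where a fold is named. The standard errors are those of the fit. Paralog differences were tested by two-sided exact permutation over the WT arrays (scipy 1.17.1), without pairing by culture or adjustment over the pairs. The fit recovered known changes in a self-test on simulated arrays. Their noise was drawn independently for each array, without shared cultures or the split between the WT cultures, so the self-test does not cover these. The members, lists and tests were chosen with earlier results of these data known. Array values are given for *TUP1*, the stalk genes, the 5 lowest and 5 highest WT responses, the 3 lowest and 3 highest strain differences in DMSO and in the response, and the 4 pairs that differed most. *RPL19A* was added after its values were seen.

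WT arrays of one number share a culture by the study's design text. After subtraction of the group means, the arrays of one number correlated at 0.745, 0.119, 0.531 and 0.535, and those of *tup1Δ* at 0.064. Arrays of *tup1Δ* were paired by number too, in the replicate block and in the responses of single replicates. A shared culture is stated here for WT only. The number of arrays limits the precision. Promoter and protein sequences and introns were not analysed here.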

Additional observations from a re-analysis of the deposited data

Results flagged for a closer look

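Among 46 groups of 4 WT arrays, over *TUP1* and the 22 genes whose array values are given by rule (not *RPL19A*, which was added later), 3 held an array that stood far from the other 3, where chance alone would give about 1 in 20, or 2.3. In WT rapamycin, *RPL22B* was low on replicate 2 (8.68 beside 8.88 to 8.91), with a gap of 0.887 of the group's range, and *RPP2A* was high on replicate 2 (12.54 beside 11.86 to 11.88), with a gap of 0.978. In WT DMSO, *RPL33A* was high on replicate 1 (13.09 beside 13.03 to 13.04), with a gap of 0.85.

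By limma's test of the difference between the responses of the strains, 4 large-subunit genes passed at an adjusted p under 0.05. They are 5.13% of the measured large-subunit genes, a share close to the 3.48% of all genes that passed in this direction. The calls depended on single *tup1Δ* arrays, as described above. *RPL36A* had a difference of 0.67 (*tup1Δ* minus WT), *RPL31A* of 0.55, *RPL40A* of 0.39 and *RPL19A* of 0.36. Each was less negative in *tup1Δ*.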

How the results depend on the processing

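In WT, 77 genes fell and *RPL15B* rose in every alternative fit run, with each array left out too, except that 76 fell without the dimmest 25% of genes, a filter that removes *RPL22B*. The number that fell by at least 1 was 27 with only WT replicates 1 and 2, 72 at a fold threshold of 0.5 and 15 at 1.5 (log2), and 38 to 49 with each array left out. The medians were -0.88 with only WT replicates 1 and 2 and -1.26 with only replicates 3 and 4. In *tup1Δ*, the number that fell by at least 1 was 59 at 0.5, 4 at 1.5, 16 with arrays shifted to the median gene, and 9 to 18 with each array left out. There the rise of *RPL15B* passed a threshold of 0.5 (1 gene), 0 to 1 genes were higher with each array left out, and the median was -0.70 to -0.57.

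Between strains in DMSO, 1 gene was lower after the shift to the median gene, 8 with only the groups compared, 8 with only WT replicates 1 and 2, 12 with only replicates 3 and 4, and 1 to 6 with each array left out. In the same order, 1, 4, 0, 9 and 0 to 1 genes were higher. Of all genes, 18.1%, 26.7%, 31.8% and 42.2% were lower in the first 4 of these settings. The shares of all genes that were higher were 20.3%, 15.3%, 17% and 25.3%. The shift moved the median of the 78 genes to 0.0713, and 1 gene was lower past 0.5. In rapamycin, 18 genes were higher with only the groups compared and 3 to 59 with each array left out. Past the fold threshold there were 20 at 0.5, 1 after the shift, 4 with only WT replicates 3 and 4, and 0 to 1 with each array left out. The median was 0.21 with only WT replicates 1 and 2. Without the dimmest 25% of genes, 0 were lower.

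The strain difference in the response passed for 15 genes with the replicate block (arrays paired by replicate number), 7 with only WT replicates 1 and 2, 70 with only replicates 3 and 4 (4 past the fold threshold), and 0 to 19 with each array left out, and for 2 past 0.5. The medians were 0.22 and 0.59. The replicate block moved no other count of genes by over 1.5 times. Differences near 0 changed sign. *RPL31B* between strains in DMSO was -0.0289 with only WT replicates 3 and 4. For the strain difference in the response, *RPL2A* was 0.0295 after a further quantile normalization, 0.0106 centered on array medians, 0.008 after the shift, 0.0964 with only WT replicates 3 and 4, and -0.0896 to 0.0708 with each array left out. *RPL2B* was -0.12 and *RPL5* -0.023 with only WT replicates 1 and 2, *RPL5* was -0.0161 after quantile normalization, and *RPL2B* was -0.0118 to 0.0892 with each array left out. Where these settings leave out arrays or genes, fewer values enter the fit. For the others the cause was not tested.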
